A study of Rattus norvegicus with 2 samples.

Results

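The genes of cholesterol synthesis and sterol transport were followed in rat retina after a loss and return of blood flow. They are 31 genes chosen by symbol, of which 30 had an entry among the 32662 genes of the deposited expression table. They cover 7 enzymes of the mevalonate steps, 11 enzymes of the squalene and sterol steps, 5 genes of sterol sensing, 1 sterol carrier, 4 genes of uptake and efflux and 3 of fatty acid synthesis. Scd, a desaturase, had no entry under that symbol and is described separately under its RefSeq synonym Scd1.

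RNA-seq of ribosomal RNA-depleted total RNA was done on 2 retinas of female Long-Evans rats aged 2 months. CTRL was the retina of a sham procedure, and IR12 was a retina collected 12 hours after reperfusion that followed ischemia, an injury in which the blood supply is blocked and then restored. The question asked of these genes was whether those for making cholesterol and those for moving it in and out of cells differed between the retinas. Each condition was 1 library, so no difference has a replicate check, no p-value can be given, and differences between the procedures cannot be told apart from differences between the animals or the libraries.

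Cells obtain cholesterol in 2 ways, by building it from acetyl-CoA or by taking up lipoproteins. In the endoplasmic reticulum the Insig proteins hold back Scap and the SREBP transcription factors when sterols are plentiful, and release them when sterols are scarce, so that genes of synthesis and uptake are switched on together. Oxysterols act on the LXR receptors, which switch on efflux genes such as Abca1 and Abcg1. The neural retina makes cholesterol itself, also receives it from the circulation through the pigment epithelium, and passes it between glia and neurons on particles that carry apolipoprotein E, much of it from Müller glia.

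Values are FPKM as deposited, fragments per kilobase of transcript scaled to a library size. How that size was set is not given in the sources used here. A difference is the log2 ratio of FPKM + 1, IR12 over CTRL, which understates the change of genes with a low level. A gene was counted as higher or lower past 2-fold on that scale, and more loosely past 1.5-fold. The FPKM of sparsely read genes moved in steps of single reads, and these steps were 1.71 times as large in CTRL as in IR12 at 17 of 25 locus lengths compared. Each FPKM unit stood for about 15.4 reads per kilobase of effective length in CTRL and 26.3 in IR12. An equal FPKM thus stood for more reads in IR12, for which the paper also gives more reads in all. Counting intervals are exact 95% binomial intervals of the plain FPKM ratio for an effective length of 1 kb. They cover counting error alone, and no variation between animals.

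Of the 30 genes, 2 were higher in IR12 by 2-fold or more, as were 6.56% of the 13599 genes that reached an FPKM of 1 in CTRL or IR12, called expressed here. Another 2 were lower by 2-fold or more, beside 6.12% of all expressed genes. At 1.5-fold the counts were 3 higher and 2 lower, beside 14.8% and 13.7% of all genes. The share of sterol genes past 2-fold was 6.67% in each direction, near that of all genes. The other 25 lay within 1.5-fold, 83.3% of the 30 against 71.6% of all genes. The summed FPKM of the 30 genes was 854 in CTRL and 858 in IR12. The genes past 2-fold were Lss and Ebp, both enzymes of the late part of synthesis and higher in IR12, and Apoe and Lpl, both of lipoprotein handling and lower in IR12. In bulk tissue, fewer cells of a type and less RNA per cell cannot be told apart.

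**Figure D1:**
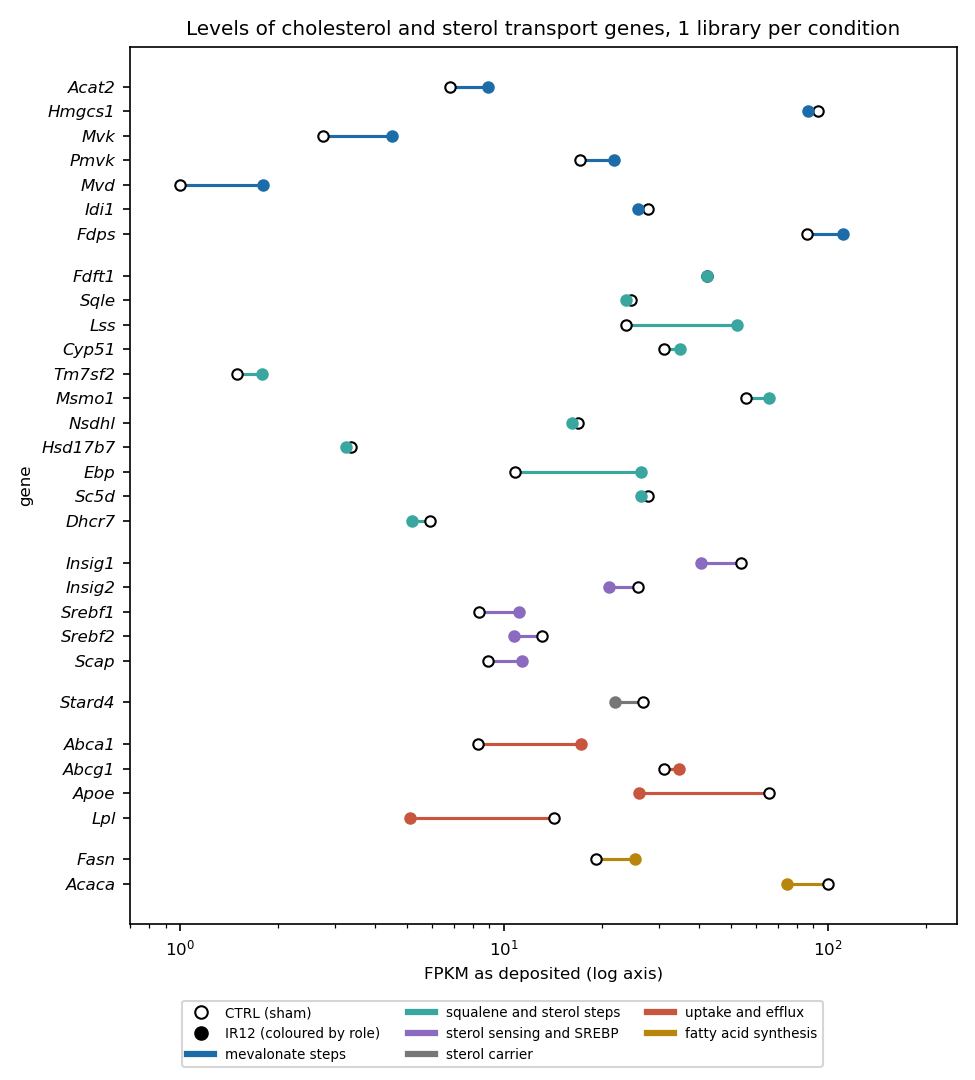
FPKM of the 30 genes on a log axis, with open circles for CTRL, filled circles for IR12 and colours for the role. Most pairs nearly touch, while the lines of Lss, Ebp, Abca1, Apoe and Lpl span about 2-fold or more.

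The scaling of the libraries matters for the size of the differences below and for the direction of some. When both libraries were rescaled to the same FPKM sum, the TPM scale, the median gene moved from 0.02 to 0.59 in log2 ratio, and the counts of all genes past 2-fold went from 892 higher and 832 lower to 2817 higher and 436 lower. Those of the sterol genes went from 2 higher and 2 lower to 5 higher and 0 lower. With small loci left out of the sum the median gene was at 0.34. On the TPM scale 12 of the 30 genes changed sign, all of them with a value below 0 as deposited, so values are also given relative to the median gene. Lss and Ebp stayed above 0 and Apoe and Lpl below 0 under all scalings tried.

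**Figure D2:**
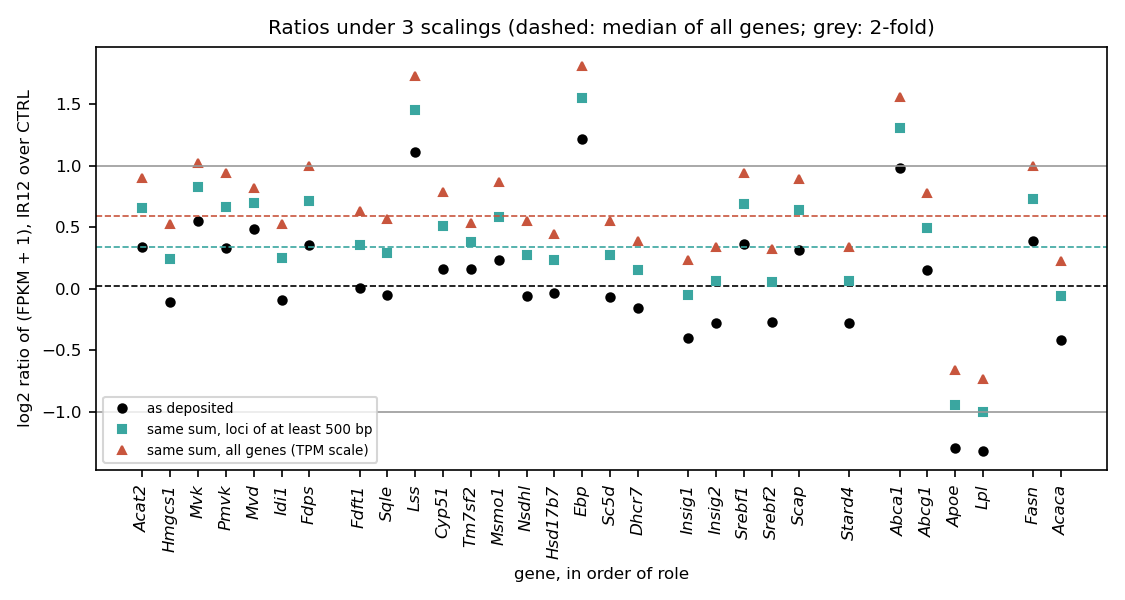
Log2 ratio of FPKM + 1, IR12 over CTRL, for each gene in order of role, as deposited (circles) and after scaling to the same sum over loci of at least 500 bp (squares) or over all genes (triangles). Dashed lines mark the median of all genes, at 0.02, 0.34 and 0.59, and the genes move up with it.

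The mevalonate steps turn acetyl-CoA into the isoprenoid units from which sterols and other isoprenoids are built. As deposited and with the pseudocount of 1, none of the 7 genes was past 1.5-fold, beside 14.8% of all genes higher and 13.7% lower. Their median log2 ratio was 0.34, or 0.32 above the median of all genes. On the TPM scale, where the median gene stood at 0.59, Mvk was past 2-fold, at 1.02. Fdps, Pmvk, Acat2 and Mvd were past 1.5-fold on that scale. Hmgcs1, which joins acetyl-CoA to acetoacetyl-CoA, was read at 93.4 FPKM in CTRL and 86.4 FPKM in IR12, with a log2 ratio of -0.11. Its level was above that of 91.9% of expressed genes in CTRL and 90.7% in IR12. Fdps, which makes farnesyl diphosphate, the branch point between sterols and other isoprenoids, reached 86.2 FPKM in CTRL and 111 FPKM in IR12. These were the most abundant transcripts of the mevalonate steps in both retinas, and their order was not the same in the 2 libraries.

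Mvk, the kinase that phosphorylates mevalonate, stood at 2.77 FPKM in CTRL and 4.51 FPKM in IR12. Its log2 ratio was 0.55, and its plain ratio was 1.63, with a counting interval of 1.13 to 2.35. Mvd, which decarboxylates the product of the next kinase step, was read at 0.999 FPKM in CTRL and 1.81 FPKM in IR12. It reached an FPKM of 1 in IR12 only, and its values stand for about 15 and 47 reads per kilobase. Its log2 ratio was 0.49 and its plain ratio 1.81, with a counting interval of 1.01 to 3.53, so which of Mvk and Mvd had the higher ratio turned on the pseudocount. With a pseudocount of 0.1 both passed 1.5-fold, at log2 ratios of 0.69 in Mvk and 0.79 in Mvd. The levels of Acat2, Pmvk and Idi1, for the thiolase, the second kinase and the isomerase of the route, lay between 6.82 and 27.7 in CTRL and between 8.90 and 25.9 in IR12. Their log2 ratios ran from -0.10 in Idi1 to 0.34 in Acat2. On the TPM scale, where the median gene stood at 0.59, all were above 0, with Idi1 at 0.53.

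The squalene and sterol steps close the carbon chain into a ring system and trim it to cholesterol. Their 11 genes had a median log2 ratio of 0.00. Past 2-fold, 2 of them were higher and 0 lower, beside 6.56% and 6.12% of all genes. Within 1.5-fold lay 81.8% of them, beside 71.6% of all genes. Lss, lanosterol synthase, which folds oxidised squalene into the first sterol, reached 23.8 FPKM in CTRL and 52.5 FPKM in IR12. The ratio was 2.204, with a counting interval of 1.96 to 2.48, and the log2 ratio was 1.11. IR12 was the higher library, and relative to the median gene the log2 ratio was 1.14 on the TPM scale. The gene lies at chr20:12842884-12870497 of rn6.

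Ebp, the isomerase that shifts a double bond in the sterol ring, stood at 10.8 FPKM in CTRL and 26.5 FPKM in IR12. The ratio was 2.45, with a counting interval of 2.06 to 2.91, and the log2 ratio was 1.22, the highest of the 30 genes. IR12 was again the higher library, and the value relative to the median gene on the TPM scale was 1.22. Ebp lies at chrX:15049462-15055781 of rn6. Porcn, the gene within 2 kb of it, had a log2 ratio of 0.48, from an FPKM of 10.8 to 15.6.

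The enzymes on either side of Lss and Ebp did not share their difference. Fdft1, squalene synthase, was read at 42.1 FPKM in CTRL and 42.2 FPKM in IR12. Sqle, the oxygenase that makes the substrate of Lss and a known control point of the route, reached 24.6 FPKM in CTRL and 23.7 FPKM in IR12. Cyp51, which removes a methyl group from the product of Lss, stood at 31.04 FPKM in CTRL and 34.8 FPKM in IR12. The 3 log2 ratios were 0.00, -0.05 and 0.16, so in CTRL the level of Lss was just under that of Sqle, and in IR12 it was well above both Sqle and Cyp51.

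Sc5d, the desaturase that acts on the product of Ebp, was read at 27.7 FPKM in CTRL and 26.4 FPKM in IR12. Dhcr7, the reductase of the last step of that branch, reached 5.91 FPKM in CTRL and 5.21 FPKM in IR12. Ebp was below Sc5d in CTRL and at about the same level in IR12. Msmo1, which begins the removal of further methyl groups, was the most abundant of the 11, at 56.0 FPKM in CTRL and 65.9 FPKM in IR12. Nsdhl and Hsd17b7, which finish that removal, and Tm7sf2, a sterol reductase, had log2 ratios of -0.06, -0.04 and 0.16.

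Over all 18 synthesis genes the median log2 ratio was 0.16, which was 0.14 above the median gene, and 0.12 above it on the TPM scale. Of the 18, 11 were above 0, or 61.1% beside 51.8% of all genes, and 16 lay within 1.5-fold, or 88.9% beside 71.6%. Their summed FPKM was 479 in CTRL and 558 in IR12, a ratio of 1.17. Such a sum weighs the abundant genes most, and Hmgcs1, Fdps and Msmo1 led it in both libraries. The genes with the largest excess of FPKM in IR12 were Lss, Fdps and Ebp, while Hmgcs1 was lower there.

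**Figure D3:**
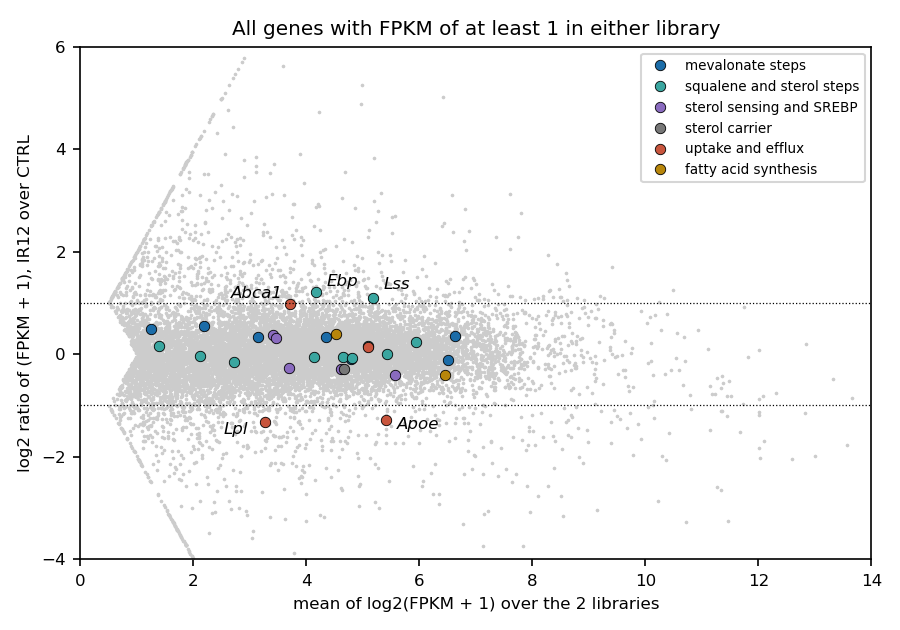
Mean level against log2 ratio for the 13599 genes with an FPKM of at least 1 in either library (grey, 84 of them outside the plotted range) and the sterol genes in the colours of their role. Dotted lines mark 2-fold, and Ebp, Lss, Apoe and Lpl lie beyond them with Abca1 at the upper line.

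The start regions of these genes were read to see what they share. RefSeq windows on GRCr8, from 250 bases before the start of a gene to 50 after it, were matched for 23 of the 31 genes, 15 of them synthesis genes. Not matched were Pmvk, Fdft1, Sqle, Stard4, Abcg1, Lpl, Fasn and Acaca. The letters CCAAT, bound by the factor NF-Y, and GGGCGG, bound by Sp1, were searched on both strands, since both factors are known partners of SREBP. Below are Lss and Ebp, the synthesis genes that were higher, Hmgcs1, which enters the pathway and was within 1.5-fold, and Abca1, an efflux gene. Capitals mark CCAAT or GGGCGG, or their reverse complements, and each is written 5′ to 3′ on the strand of the gene.
Lss, chr20:12118181-12118480, minus strand: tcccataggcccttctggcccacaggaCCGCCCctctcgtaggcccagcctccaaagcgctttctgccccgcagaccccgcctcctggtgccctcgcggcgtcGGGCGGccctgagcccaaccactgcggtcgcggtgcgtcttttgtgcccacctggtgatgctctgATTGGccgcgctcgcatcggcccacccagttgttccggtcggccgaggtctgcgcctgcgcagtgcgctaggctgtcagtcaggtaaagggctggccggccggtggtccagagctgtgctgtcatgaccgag
Ebp, chrX:16971212-16971511, plus strand: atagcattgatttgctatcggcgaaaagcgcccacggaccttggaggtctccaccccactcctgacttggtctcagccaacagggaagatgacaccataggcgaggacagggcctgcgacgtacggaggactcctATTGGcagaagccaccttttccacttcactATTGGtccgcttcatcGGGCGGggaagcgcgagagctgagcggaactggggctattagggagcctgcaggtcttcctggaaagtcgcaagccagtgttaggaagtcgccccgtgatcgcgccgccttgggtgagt
Hmgcs1, chr2:53382054-53382353, plus strand: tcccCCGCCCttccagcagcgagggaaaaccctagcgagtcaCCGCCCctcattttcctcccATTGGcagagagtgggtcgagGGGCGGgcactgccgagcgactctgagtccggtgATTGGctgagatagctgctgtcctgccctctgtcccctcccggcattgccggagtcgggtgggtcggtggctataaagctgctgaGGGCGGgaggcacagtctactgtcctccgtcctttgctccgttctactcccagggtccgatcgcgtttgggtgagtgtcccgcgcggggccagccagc
Abca1, chr5:72596424-72596723, minus strand: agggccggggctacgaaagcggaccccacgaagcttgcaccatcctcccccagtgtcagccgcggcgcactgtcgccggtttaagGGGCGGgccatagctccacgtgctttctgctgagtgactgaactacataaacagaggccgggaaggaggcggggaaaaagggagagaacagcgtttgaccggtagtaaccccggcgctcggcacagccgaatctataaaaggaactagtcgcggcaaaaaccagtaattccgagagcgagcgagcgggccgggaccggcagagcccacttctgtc

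The window of Lss held 1 CCAAT and 2 GGGCGG, that of Ebp 2 and 1, that of Hmgcs1 2 and 4, and that of Abca1 0 and 1. Of the 15 synthesis genes with a window, 12 held CCAAT, or 80%, against 38.7% of the 9275 expressed genes with a window and 39.6% of all 27457 genes with one. GGGCGG was in 13 of 15, or 86.7%, against 63.7% of expressed genes and 36.0% of all genes. Both were in 10 of 15, or 66.7%, against 23.7% and 13.2%. Over windows instead of genes, 37.5% of all 33469 held CCAAT and 33.1% held GGGCGG. The sterol regulatory core TCACNCCAC was in 0 of the 23 genes and in 1.25% of all genes, and the LXR-type repeat, AGGTCA written again after any 4 bases, was in 0 of the 23 and in 2 of all genes. A match is a description, not a site or a cause, and windows with both motifs belonged to genes that were higher and to genes that were not.

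Sterol sensing decides how much SREBP reaches the nucleus. None of the 5 genes was past 1.5-fold as deposited, beside 14.8% of all genes higher and 13.7% lower. On the TPM scale Srebf1 and Scap passed it, at 0.94 and 0.89. The median log2 ratio of the 5 was -0.27. It was -0.29 relative to the median gene, and -0.25 relative to it on the TPM scale. Insig1, the retention protein whose own gene is a target of SREBP, stood at 53.9 FPKM in CTRL and 40.5 FPKM in IR12. Its log2 ratio was -0.40, and on the TPM scale, where the median gene stood at 0.59, it was 0.23. Insig2, the retention protein that is less dependent on SREBP, was read at 25.8 FPKM in CTRL and 21.1 FPKM in IR12. Both lay below the median gene on each scale, by less than 1.5-fold.

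Srebf2, the gene of the SREBP that acts chiefly on cholesterol synthesis, reached 13.1 FPKM in CTRL and 10.7 FPKM in IR12, a log2 ratio of -0.27. Srebf1, whose products act more on fatty acid synthesis, stood at 8.37 FPKM in CTRL and 11.1 FPKM in IR12, a log2 ratio of 0.37. Scap, the escort of both, was read at 8.94 FPKM in CTRL and 11.3 FPKM in IR12. The order of the SREBP genes therefore differed between the libraries, with Srebf2 above Srebf1 in CTRL and the levels near each other in IR12. These are levels of transcripts, and the processing of SREBP proteins was not measured. Stard4, which carries cholesterol between membranes, reached 26.8 FPKM in CTRL and 21.9 FPKM in IR12, a log2 ratio of -0.28.

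The 4 genes of uptake and efflux went different ways. Apoe, the main apolipoprotein of lipid particles within neural tissue, stood at 65.5 FPKM in CTRL and 26.1 FPKM in IR12. CTRL was 2.505 times as high, with a counting interval of 2.27 to 2.76, and the log2 ratio was -1.29. It stood above 87.5% of expressed genes in CTRL and 66.2% in IR12. Relative to the median gene on the TPM scale its log2 ratio was -1.25, while the unadjusted value on that scale was -0.66, short of 2-fold. Apoe lies at chr1:80612895-80617057 of rn6, and Tomm40, within 2 kb of it, was the other way, at 6.98 FPKM in CTRL and 16.5 FPKM in IR12.

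Lpl, lipoprotein lipase, which splits triglycerides in lipoproteins so that tissues can take up their fatty acids, was read at 14.3 FPKM in CTRL and 5.13 FPKM in IR12. CTRL was 2.78 times as high, with a counting interval of 2.24 to 3.47, and the log2 ratio of -1.32 was the lowest of the 30 genes. On the TPM scale it was -0.73, and -1.32 relative to the median gene. The gene lies at chr16:22537056-22561496 of rn6.

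Abca1, the transporter that loads cholesterol onto lipid-poor apolipoproteins, reached 8.28 FPKM in CTRL and 17.3 FPKM in IR12. IR12 was 2.09 times as high, with a counting interval of 1.71 to 2.55, but the log2 ratio of FPKM + 1 was 0.98, just under 2-fold. It passed 2-fold with a pseudocount of 0.1, with none and on both rescaled versions, and it passed 1.5-fold as deposited. Relative to the median gene its log2 ratio was 0.97 on both rescaled versions, just under 2-fold. Lss, at 1.11, was the gene nearest to the limit on the other side. Abca1 lies at chr5:69851171-69983015 of rn6. Abcg1, which passes cholesterol on to lipoprotein particles that already hold lipid, stood at 31.2 FPKM in CTRL and 34.7 FPKM in IR12, with a log2 ratio of 0.15.

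The LXR targets Abca1, Abcg1 and Apoe thus did not move together. The median of the 4 genes was -0.57, midway between Abcg1 and Apoe and close to neither. On the TPM scale it was 0.058, or -0.53 relative to the median gene. The synthesis median minus the uptake and efflux median was 0.73, and from 0.65 to 0.78 under the alternatives. This difference rests on 4 genes that spanned -1.32 to 0.98, and Abca1 lay further from its own group's median than the medians of the groups lay apart. In the wider list described below, the 5 expressed lipoprotein uptake genes had a median of 0.23. The 11 expressed genes of LXR, efflux and lipoproteins there also had a median of 0.23. Both lay above the synthesis median of 0.16, so the lower median was not shared by the wider list.

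Fatty acid synthesis shares the SREBP control and supplies the acyl chains with which cholesterol is esterified. Fasn, fatty acid synthase, was read at 19.2 FPKM in CTRL and 25.4 FPKM in IR12, a log2 ratio of 0.39. Acaca, acetyl-CoA carboxylase, which makes malonyl-CoA for it, reached 99.6 FPKM in CTRL and 74.5 FPKM in IR12, a log2 ratio of -0.41, and 0.23 on the TPM scale. Relative to the median gene on that scale, Acaca was at -0.37. Neither was past 1.5-fold as deposited. Scd1, the synonym of Scd, a desaturase that makes oleate, stood at 9.04 FPKM in CTRL and 5.39 FPKM in IR12. Its log2 ratio was -0.65, lower past 1.5-fold as deposited. It fell short of that limit on the TPM scale, at -0.08, and with the same sum over loci of at least 500 bp, at -0.34. Relative to the median gene, which stood at 0.59 and 0.34 there, Scd1 was at -0.68 on both, lower past 1.5-fold. Its paralog Scd2, looked at after the values were seen, was read at 214 FPKM in CTRL and 83.1 FPKM in IR12, a log2 ratio of -1.36. Reads of close paralogs can be split between them, so these values are uncertain.

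A wider list of 50 genes around the same pathway was read in the same way, and 44 of them had an FPKM of at least 1 in either library. Past 2-fold, 3 were higher and 0 lower, or 6.82% and 0% beside 6.56% and 6.12% of all genes. Past 1.5-fold, 5 were higher and 2 lower, or 11.4% and 4.55% beside 14.8% and 13.7%. The share higher was thus near that of all genes or below it, and the median was 0.09 beside 0.02. Acss2, which makes acetyl-CoA from acetate and is a target of SREBP, reached 21.7 FPKM in CTRL and 86.5 FPKM in IR12. The ratio was 3.98, with a counting interval of 3.55 to 4.48, larger than that of any of the 30 genes. Acly, which makes acetyl-CoA from citrate, stood at 77.6 FPKM in CTRL and 87.3 FPKM in IR12, so the transcript for the acetate route was below that for the citrate route in CTRL and about level with it in IR12.

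Clu, clusterin, an apolipoprotein and extracellular chaperone, was read at 223 FPKM in CTRL and 673 FPKM in IR12. The ratio of 3.02, with a counting interval of 2.91 to 3.13, ran opposite to that of Apoe. Ch25h, which makes an oxysterol in activated immune cells, reached 0.117 FPKM in CTRL and 3.07 FPKM in IR12. The CTRL value stands for about 2 reads per kilobase, and the counting interval of the ratio ran from 6.36 to 199.2. Its neighbour in function Cyp46a1, the hydroxylase by which neurons dispose of cholesterol, stood at 4.11 FPKM in CTRL and 3.03 FPKM in IR12, a log2 ratio of -0.34.

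Among receptors, Scarb1, which takes up cholesterol esters from high-density lipoprotein, was read at 90.3 FPKM in CTRL and 163 FPKM in IR12, a log2 ratio of 0.85. Lrp1, which takes up particles with apolipoprotein E, reached 13.99 FPKM in CTRL and 8.99 FPKM in IR12, a log2 ratio of -0.59 at the 1.5-fold limit. Vldlr, another receptor for such particles, stood at 43.7 FPKM in CTRL and 55.0 FPKM in IR12. The receptors that bind apolipoprotein E thus had no direction in common. Pltp, which moves phospholipids between lipoproteins, was read at 4.49 FPKM in CTRL and 2.17 FPKM in IR12, a log2 ratio of -0.79, and Lcat, which esterifies cholesterol on them, 0.672 and 1.74.

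The LXR genes themselves were not past 1.5-fold as deposited with the pseudocount of 1. Both were with a pseudocount of 0.1, at log2 ratios of 0.63 and 0.61, and on the TPM scale, at 1.08 and 0.78. The median gene stood at 0.59 on the TPM scale, and relative to it they were at 0.49 and 0.18, within 1.5-fold. Nr1h2 reached 4.80 FPKM in CTRL and 7.46 FPKM in IR12, and Nr1h3 stood at 1.36 FPKM in CTRL and 2.12 FPKM in IR12. Mylip, an LXR target that degrades lipoprotein receptors, stood at 18.2 FPKM in CTRL and 17.0 FPKM in IR12. As deposited, 0 of the 8 genes for lysosomal release, storage and carriage of cholesterol were past 1.5-fold. Of the 6 for SREBP processing and sterol-regulated degradation 0 were. Among all genes 14.8% were higher and 13.7% lower past that limit, and a difference of groups this small from that share was not tested. The medians of these groups were -0.01 and 0.20.

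**Figure D4:**
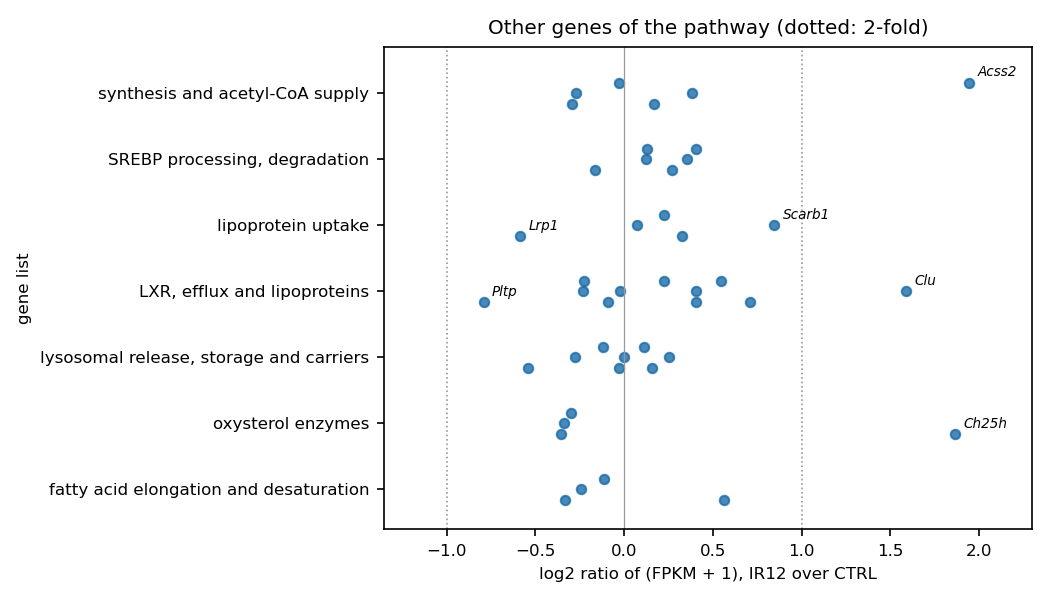
Log2 ratio of FPKM + 1, IR12 over CTRL, for the 44 expressed genes of the wider pathway list, with 1 point per gene and a line of points per role. Dotted lines mark 2-fold, passed by Acss2 at 1.95, Ch25h at 1.87 and Clu at 1.59, and none lies below the lower line.

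Markers of cell types moved between the same libraries, and they are given because Apoe and Lpl are not made evenly by all retinal cells. Past 2-fold, 6.56% of all expressed genes were higher and 6.12% lower. The retina label was checked on rods, the most numerous cells of the rat retina, whose 7 genes summed to 15561 FPKM in CTRL and 18970 FPKM in IR12, with 0 of 7 past 2-fold. Of 8 Müller glia genes, 7 were lower past 2-fold, and their sum was 1566 in CTRL and 549 in IR12. The most abundant, Glul, was read at 754 FPKM in CTRL and 126 FPKM in IR12, and only Vim, at 121 and 221, was higher. All 7 stayed below 0 on the TPM scale, as did all 6 lens genes. The median of the 8 Müller glia genes, Vim included, was -1.93, and they ran from -3.25 in Aqp4 to 0.86 in Vim. Apoe, at -1.29, lay in that wide range, as did every sterol gene except Lss, Ebp and Abca1. The part of Müller glia in the value of Apoe was not tested.

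Of 9 microglia and macrophage genes, 5 were higher past 2-fold and 0 lower, with a sum of 22.3 in CTRL and 105 in IR12. Their most abundant gene, Lyz2, reached 9.73 FPKM in CTRL and 76.9 FPKM in IR12, while Csf1r, a general marker of these cells, had 3.61 and 3.71. Of 5 neutrophil genes, S100a8, Mmp8 and Cxcr2 were listed at 0 in CTRL, and the sum was 0.233 in CTRL and 38.6 in IR12, led by S100a9 at 0.199 and 23.0. Cx3cr1, of the same microglia and macrophage list, had a log2 ratio of -0.36. Immune cells express Abca1, Ch25h and Apoe, and the part of these cells in the values of these genes was not tested.

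The lens genes were all lower past 2-fold, with a sum of 3361 in CTRL and 399 in IR12, led by Cryba1 at 1614 and 196. The part of lens tissue in the lower values of Apoe and Lpl was not tested. The 3 astrocyte genes summed to 28.8 and 27.8, led in CTRL by S100b, at 25.8 in CTRL and 5.81 in IR12, and in IR12 by Gfap, at 2.95 in CTRL and 21.9 in IR12. The near-equal sums thus hold opposite differences, and Pax2 was listed at 0 in CTRL. Endothelial genes, with 4 of 5 found, summed to 115 and 73.5, led by Kdr at 108 and 66.8, with 0 past 2-fold. The sums were 88.8 and 116 for 5 pigment epithelium genes, of which 1 was lower past 2-fold, and 20.8 and 35.3 for 2 of 4 blood genes.

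**Figure D5:**
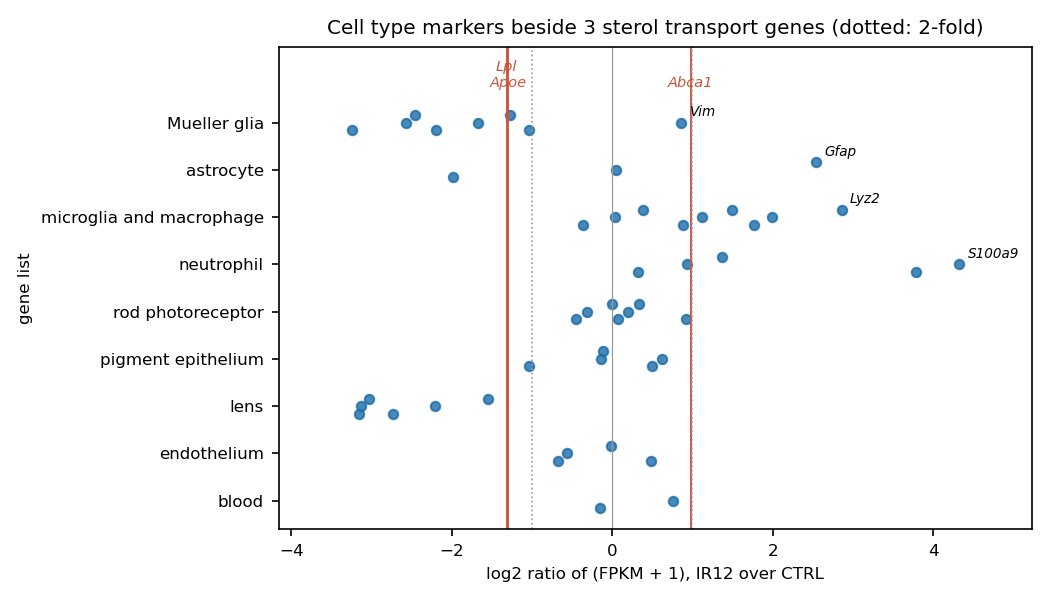
Log2 ratio of FPKM + 1, IR12 over CTRL, for cell type marker genes, with 1 point per gene and a line of points per list. Vertical lines mark Lpl at -1.32, Apoe at -1.29 and Abca1 at 0.98, and 7 of 8 Müller glia and all 6 lens genes lie left of the lower dotted line at 2-fold.

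Overlap with other genes can shift such values, since the strand setting of the counting is not given in the sources used here. Of the 30 genes, 8 shared their listed locus with another gene, and in 4 cases that gene had an FPKM of at least 1. These were Idi1 with Wdr37, Fdps with U6, Tm7sf2 with Vps51 and Srebf1 with Rai1. Reads of the paired genes may not be fully separable, and none of the 4 was past 1.5-fold as deposited. Lss shared its locus with no other gene, nor did Ebp, Apoe or Lpl. Srebf2 shared its locus with Mir33, the microRNA gene in its intron, which was listed at 0 in both libraries. Gapdh, a gene often used as a reference, stood at 716 FPKM in CTRL and 690.1 FPKM in IR12, so its log2 ratio of -0.05 as deposited was near the median gene.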

How the data were processed

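The authors deposited gene FPKM for both libraries. The submitters' processing notes name STAR 2.5.2b, Cuffdiff 2.2.0 and the rn6 build, without their roles. Reads were single-end, and the paper states that they were shortened for low quality at the 3′ end. Listed gene starts count from 0 and were raised by 1. From the deposited FPKM, log2 ratios were computed with a pseudocount of 1 over genes that reached an FPKM of 1 in CTRL or IR12, with pandas 2.3.3, numpy 2.4.6 and scipy 1.17.1 in Python 3.11.15, and drawn with matplotlib 3.10.9. Reads per kilobase came from a line through single-read FPKM steps at 8 locus lengths of at least 900 bp. Procedures were checked on simulated data. Members and lists were chosen with earlier results of these data known, and the counting intervals were added after seeing the data. The named genes are all 31 members and some genes of the wider pathway and marker lists. Those named from the wider list include every gene past 1.5-fold as deposited, so they lean towards larger differences. Scd1, Scd2, Gapdh and genes sharing or next to a member's locus are named outside these lists. Alternatives were a pseudocount of 0.1, the TPM scale, the same sum over loci of at least 500 bp, centring on the median gene, a minimum FPKM of 5, and no minimum. The result of 1 marker list is not reported here.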

Additional observations from a re-analysis of the deposited data

How the results depend on the processing

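Of 120 counts and medians recomputed under the alternatives, 93 stayed within the limits set, 1.5 times for a count and 0.1 for a median, while 26 moved further and 1 changed sign. Within these limits values could still differ, as the synthesis median did, at 0.16 as reported and 0.082 with a minimum FPKM of 5. Of 235 values of single genes, 170 stayed within 0.1. On the TPM scale, the sterol genes past 2-fold were 5 higher and 0 lower, with 15 higher past 1.5-fold. The wider list had 7 higher past 2-fold, 24 higher and 0 lower past 1.5-fold. All genes had 2817 higher and 436 lower past 2-fold, 6897 and 713 past 1.5-fold. The synthesis median was 0.71, and the uptake and efflux median turned from -0.57 to 0.058. With the same sum over loci of at least 500 bp, 0 sterol genes were lower past 2-fold and 11 higher past 1.5-fold. The wider list had 14 higher and 0 lower past 1.5-fold, all genes had 1635 higher past 2-fold and 4235 higher and 1052 lower past 1.5-fold, and the medians were 0.45 for synthesis and -0.22 for uptake and efflux. These shifts follow from the construction, since rescaling raised the median gene to 0.59 and 0.34. With a pseudocount of 0.1, 5 sterol genes were higher past 1.5-fold, and the wider list had 1 lower past 2-fold and 8 higher past 1.5-fold. With a minimum FPKM of 5, fewer genes were counted, and the wider list had 3 higher and 1 lower past 1.5-fold. Without a pseudocount and with an FPKM of at least 1 required in both libraries, the wider list had 1 lower past 2-fold. This alternative, chosen after seeing the data, changed the pseudocount and the minimum together. Counting Scd1 as Scd, also chosen after seeing the data, gave 3 sterol genes lower past 1.5-fold. Centring and no minimum moved none of these counts or medians past those limits. Summing several entries per symbol gave no value, since no sterol gene had more than 1. No paired analysis was possible because each condition has 1 library, and for the same reason no replicate could be left out. Depth limits genes near an FPKM of 1, such as Mvd.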
